A study of Mus musculus with 44 samples.

Results

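Trbv31 is a mouse T cell receptor β-chain variable gene. The chains that use it were followed here through their CDR3, the loop across the V, D and J junction that contacts the peptide. A Trbv31 CDR3 was taken as an amino acid CDR3 that starts with the residues CAW and ends in the germline residues of 1 of 12 Trbj genes. By this rule 3246 distinct CDR3s of the 72765 distinct β-chain (TRB) CDR3s with such an ending were Trbv31, or 4.46%. They made up 3711 entries, an entry being a CDR3 in a tumour, and took 249392 of 6301600 TRB reads, or 3.96%.

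The CDR3s came from 44 B16F10 melanoma tumours, grown under the skin of wild-type C57BL/6 mice (C57BL/6J in the methods) and taken on day 12. Of these, 15 were treated with AC484, an inhibitor of the phosphatases PTPN2 and PTPN1, 15 with anti-PD-1, an antibody that blocks the checkpoint receptor PD-1, and 14 were vehicle controls. The sample labels name the control vehicle, whereas the methods describe no treatment. Each library was made from bulk RNA of a separate tumour, so fewer T cells and less receptor RNA per cell cannot be told apart. B16F10 is a cultured line, and the T cells in these tumours are those of the host.

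A β-chain gene is assembled in the thymus by joining a D to a J segment and then a V to the DJ. The locus holds a pair of D-J-C clusters, and Trbd1 can join J genes of either cluster whereas Trbd2 lies beyond the first cluster and normally joins only those of the second. Nucleotides are trimmed and added at each junction, which makes most CDR3s rare. Most Trbv genes lie before the D segments in the same orientation and join by deleting the DNA between. Trbv31 lies beyond the last constant gene in the opposite orientation and joins by inversion.

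In the mouse genome GRCm38 (mm10), Trbv31 lay at chr6:41557691-41558452 on the minus strand, 13.8 kb past Trbj2-7, 9.34 kb past Trbc2 and 24.5 kb from Trbd1. The other 34 annotated Trbv genes and pseudogenes all lay on the plus strand, and the nearest of them ended 251 kb before Trbd1. Of the 22 functional Trbv genes 1, Trbv31, encoded a CDR3 start of CAW and 17 encoded CAS, which is why Trbv31 could be recognised from an amino acid CDR3 alone. The sequences below show the parts from which these CDR3s are read. Their bases are from the RefSeq sequence of that build, and gene positions and types are from the GENCODE annotation. The first 2 are the ends of Trbv31 (chr6:41557684-41557735, minus strand) and of a CAS gene, Trbv2 (chr6:41047950-41048002, plus strand), with capitals from the conserved cysteine codon to the end of the coding sequence, followed by the 7 bases of the recombination heptamer. The D segments, Trbd1 (chr6:41533201-41533212) and Trbd2 (chr6:41542163-41542176), are shown whole. In Trbj2-3 (chr6:41543223-41543271) and Trbj2-7 (chr6:41543810-41543856), whose use differed most between Trbv31 and other chains, capitals mark the part that can enter the CDR3.
Trbv31 end: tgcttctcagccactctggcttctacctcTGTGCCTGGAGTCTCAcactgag
Trbv2 end: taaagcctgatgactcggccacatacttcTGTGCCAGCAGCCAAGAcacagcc
Trbd1: gggacagggggc
Trbd2: gggactgggggggc
Trbj2-3: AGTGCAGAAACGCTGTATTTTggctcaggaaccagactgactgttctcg
Trbj2-7: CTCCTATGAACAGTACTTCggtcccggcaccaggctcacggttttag

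**Figure D1:**
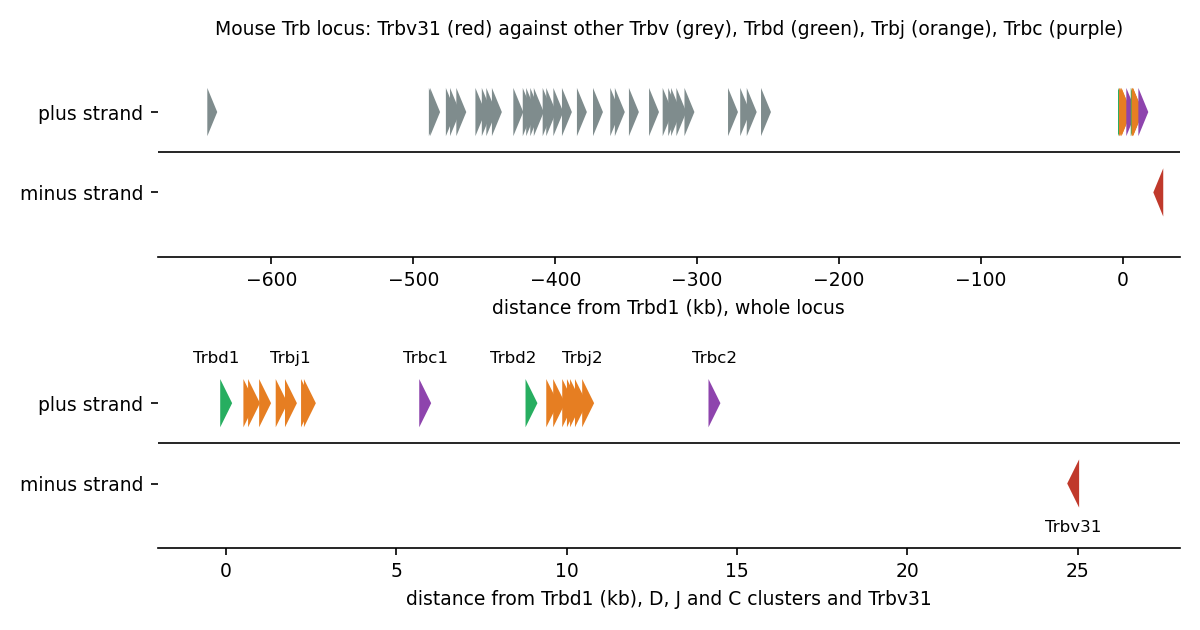
Map of the mouse Trb locus to scale, as distance from Trbd1 in kb, with the whole locus above and the D, J and C clusters with Trbv31 below. Trbv31 is the only Trbv gene past the constant genes, 24.5 kb from Trbd1.

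The label was checked against the germline end, which reads CAWSL. Residue 4 was the germline serine in 2506 of the 3246 distinct CDR3s (77.2%), and residue 5 was leucine in 1384 (42.6%). In 1329 (40.9%) all 5 germline residues were kept, in 1177 (36.3%) the first 4, and in 740 (22.8%) only CAW. Where the serine was lost, arginine was the usual replacement, at residue 4 of 349 CDR3s (10.8%). At residue 5 proline followed leucine, in 513 (15.8%). A tryptophan can also arise at random in a chain of another gene. As a measure of that, distinct TRB CDR3s starting with CA and a next residue that no functional gene encodes were counted. The most frequent were CAR with 202, CAG with 189, CAN with 171 and CAT with 151. The rest ran from 66 for CAI down to 2 for CAD, against 3246 for CAW and 59055 for CAS. The counts differed widely by residue, so they do not give the number for tryptophan. The CAW start without the serine can therefore hold chains of other genes. The treatment, within-tumour and single J gene measures were recomputed with the serine required of Trbv31 CDR3s, while other TRB CDR3s were left as they were. The calls that this ended or turned are given with them.

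Trbv31 CDR3s were 9 to 27 residues long, and 14 residues was the most frequent length, in 1097 (33.8%), followed by 15 in 754 (23.2%) and 13 in 653 (20.1%). Within tumours they averaged 14.0 residues, against 14.1 in all other TRB CDR3s, a difference of -0.0766 residues (SE 0.0252, n = 36 tumours with at least 20 distinct Trbv31 CDR3s, lower in 25, two-sided sign-flip permutation test, adjusted p = 0.02 over 15 tests). The sign turned to 0.108 residues (same test, adjusted p = 0.0001) when the serine was required. That step left out Trbv31 CDR3s that had lost a germline V residue and kept all other TRB CDR3s. The sides were then not chosen alike, so the turn cannot decide whether chains of other genes set the difference. The call was also lost without single-read entries (adjusted p = 0.063) and at an equal read total (adjusted p = 0.24), so the length difference depended on which entries were counted.

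The number of TRB reads differed between treatments. In AC484-treated tumours the lowest, median and highest totals were 32948, 135135 and 407156 reads, in anti-PD-1-treated tumours 58534, 199348 and 399662, and in vehicle-treated tumours 5060.0, 56219.5 and 188185. Over all reads the number of distinct Trbv31 CDR3s was 69.0, 120.0 and 358 (lowest, median and highest) with AC484, 26.0, 81.0 and 177 with anti-PD-1, and 5.00, 15.5 and 62.0 with vehicle. The lowest AC484-treated tumour was above the highest vehicle-treated tumour. For comparison between treatments, the number expected at an equal total of 5060 TRB reads per tumour, the smallest total, was used.

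At the equal total, tumours treated with AC484 held the most distinct Trbv31 CDR3s and vehicle-treated tumours the fewest. The lowest, median and highest numbers were 22.8, 39.9 and 75.6 with AC484, 12.0, 31.3 and 52.5 with anti-PD-1, and 2.33, 13.1 and 35.9 with vehicle. The ranges overlapped in every pair of treatments. The means were 39.7 ± 11.9 with AC484 (SD, n = 15) and 16.5 ± 12.2 with vehicle (SD, n = 14), 2.41-fold higher with AC484, and all 15 AC484-treated tumours were above the vehicle median. That difference of 23.2 (SE 4.49) passed after adjustment (two-sided permutation test of the group means, adjusted p = 0.00048 over 12 tests). Anti-PD-1-treated tumours averaged 30.4 ± 11.5 (SD, n = 15), 1.85-fold the vehicle mean, and 14 of 15 were above the vehicle median (difference 13.9, SE 4.41, permutation test, adjusted p = 0.026). Between AC484 and anti-PD-1 the difference of 9.23 (SE 4.27) did not pass after adjustment (permutation test, p = 0.035, adjusted p = 0.11).

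The libraries were made with 4 sets of index primers that followed treatment in large part. AC484 and vehicle shared no set, so set and treatment cannot be told apart there. Within the set that held 10 anti-PD-1-treated and 2 vehicle-treated tumours the numbers averaged 32.4 and 10.7 (difference 21.8, exact permutation test, p = 0.061, adjusted p = 0.22). Within the set with 7 AC484-treated and 5 anti-PD-1-treated tumours they averaged 35.5 and 26.4 (difference 9.04, exact permutation test, p = 0.11, adjusted p = 0.22).

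The larger number of Trbv31 CDR3s went with a larger number of TRB CDR3s of all kinds, which at the same total averaged 854 ± 273 in AC484-treated tumours, 651 ± 162 in anti-PD-1-treated tumours and 374 ± 238 in vehicle-treated tumours (SD, n = 15, 15 and 14). The share of Trbv31 among distinct TRB CDR3s differed by less than the spread between tumours. It averaged 4.70 ± 0.608% with AC484, 4.59 ± 0.980% with anti-PD-1 and 4.23 ± 1.34% in vehicle controls. AC484 minus vehicle was 0.468 percentage points (SE 0.391, permutation test, adjusted p = 0.47), AC484 minus anti-PD-1 0.112 (SE 0.298, adjusted p = 0.77) and anti-PD-1 minus vehicle 0.356 (SE 0.439, adjusted p = 0.72). A fit over the numbers of distinct CDR3s in all 7 classes of β-chain start (edgeR quasi-likelihood test) gave Trbv31 log2 fold changes of 0.04 (SE 0.12, adjusted p = 0.96), 0.13 (SE 0.09, adjusted p = 0.18) and -0.08 (SE 0.12, adjusted p = 0.49) for the same 3 comparisons. Of all 7 classes that fit called 0% for AC484 against vehicle, 28.6% for AC484 against anti-PD-1 and 0% for anti-PD-1 against vehicle, and Trbv31 was not among those called. Across the 44 tumours, the shares most alike to that of Trbv31 were those of Trbv13-2 (Spearman's rho 0.103) and the start shared by Trbv23 and Trbv30 (rho -0.0338). The other classes gave -0.102 for Trbv20, -0.165 for Trbv1, -0.257 for all other starts and -0.288 for the remaining CAS genes, given as a description because shares of a tumour sum to a whole.

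**Figure D2:**
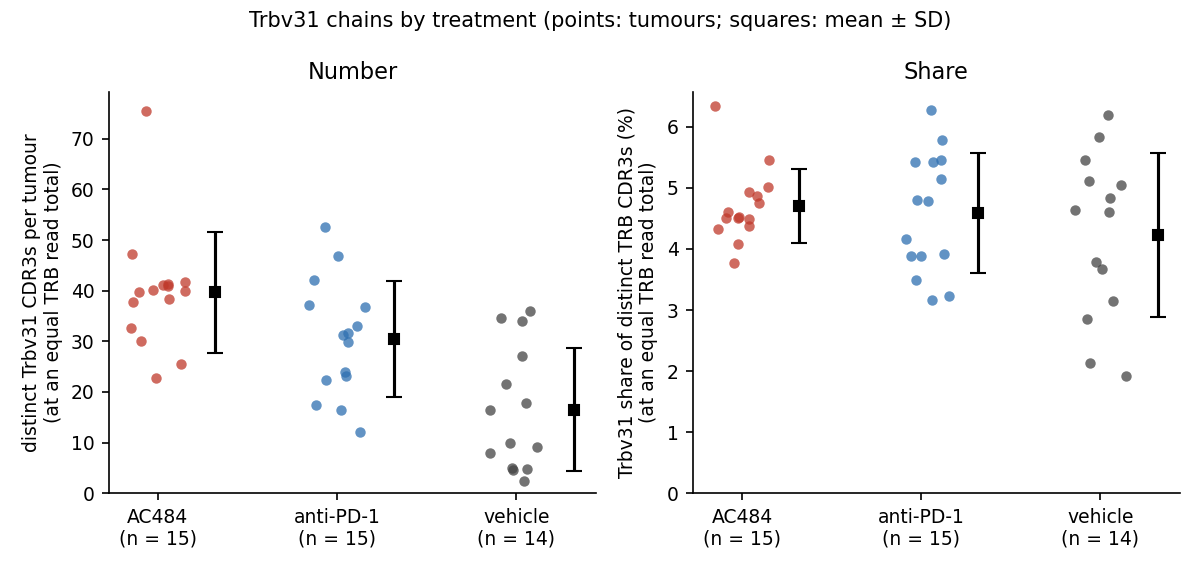
Distinct Trbv31 CDR3s per tumour at an equal total of 5060 TRB reads and their share of distinct TRB CDR3s (%), by treatment, with 1 point per tumour and the mean with SD. The mean number is 39.7 with AC484 and 16.5 with vehicle, with overlapping ranges, and the mean shares are 4.70% and 4.23%.

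Reads count expanded clones as well as clone numbers. The Trbv31 share of TRB reads was 1.40% at the lowest, 4.66% at the median and 13.4% at the highest with AC484, 1.35%, 2.07% and 15.7% with anti-PD-1, and 0.278%, 1.83% and 10.9% with vehicle. It varied widely within each treatment. The means were 5.54 ± 3.65% with AC484, 3.49 ± 3.82% with anti-PD-1 and 2.78 ± 3.06% in vehicle controls (SD, n = 15, 15 and 14). AC484 exceeded vehicle by 2.76 percentage points (SE 1.25, 14 of 15 tumours above the vehicle median), which missed the threshold after adjustment (permutation test, p = 0.037, adjusted p = 0.11). The differences of AC484 from anti-PD-1, 2.05 percentage points (adjusted p = 0.35), and of anti-PD-1 from vehicle, 0.710 (adjusted p = 0.74), did not pass either, and with the serine required the last was -0.156.

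The part of these shares that the largest clone carried differed widely between tumours. In the median AC484-treated tumour the largest Trbv31 CDR3 took 32.2% of the Trbv31 reads, in the median anti-PD-1-treated tumour 35.1% and in the median vehicle-treated tumour 39.9%. The highest values were 92.7% (AC484), 85.4% (anti-PD-1) and 87.8% (vehicle), and the lowest 18.9%, 7.78% and 8.12%. With the largest Trbv31 CDR3 of each tumour left out, a setting chosen after seeing the data, the shares averaged 2.06 ± 1.03% with AC484, 1.62 ± 0.777% with anti-PD-1 and 1.07 ± 0.613% in vehicle controls, and AC484 exceeded vehicle by 0.990 percentage points (permutation test, adjusted p = 0.018). On a log2 scale of the read shares, also chosen after seeing the data, the difference was 1.31 (adjusted p = 0.027). The call for reads thus depended on the weight given to the largest clones.

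**Figure D3:**
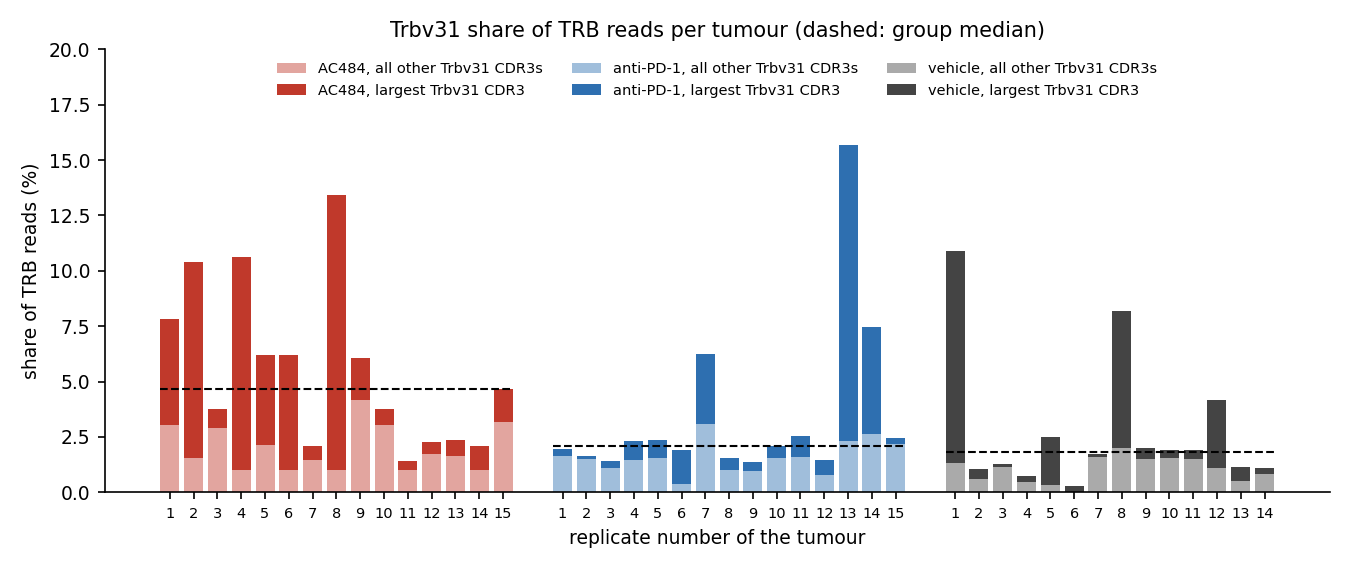
Trbv31 share of TRB reads (%) in each of the 44 tumours, by replicate number within treatment, with the largest Trbv31 CDR3 in the darker colour and dashed lines at the group medians (4.66% AC484, 2.07% anti-PD-1, 1.83% vehicle). Single tumours reach 13.4%, 15.7% and 10.9%.

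Clones that took at least 1% of a tumour's TRB reads included 21 Trbv31 CDR3s, in 17 of 44 tumours, and 586 others. They numbered 13 in 9 tumours with AC484, 4 in 4 with anti-PD-1 and 4 in 4 with vehicle, which was 5.96%, 1.95% and 2.17% of all such clones of each treatment. Among the 21, 5 used a J gene of the first cluster. The largest with AC484 was a Trbj2-5 CDR3 of 15 residues in AC484 8, with 12694 reads and 12.4% of TRB reads. The largest with anti-PD-1 was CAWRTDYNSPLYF, a Trbj1-6 CDR3 of anti-PD-1 13 with 7842 reads (13.4%), and the largest with vehicle a Trbj2-5 CDR3 of 16 residues in vehicle 1, with 5572 reads (9.56%). The germline serine was kept in the AC484 and vehicle CDR3s and lost in that of anti-PD-1.

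Of the distinct Trbv31 CDR3s, 1199 (36.9%) carried a J gene of the first cluster (J1) and 2047 (63.1%) of the second (J2). By reads the split was 93267 (37.4%) and 156125 (62.6%). Within tumours the J1 share averaged 35.9 ± 7.87% for Trbv31 and 34.3 ± 1.27% for other TRB CDR3s (SD, n = 36), a difference of 1.59 percentage points (SE 1.26, sign-flip permutation test, adjusted p = 0.33). Trbv31 also did not differ past the threshold from Trbv1, whose J1 share was 37.5% (adjusted p = 0.38), or from Trbv13-2 at 33.5% (adjusted p = 0.15). It was higher than Trbv20, at 31.9%, by 4.04 percentage points (sign-flip permutation tests, adjusted p = 0.02 over 15 tests). Trbv1 and Trbv20 have a CDR3 start of their own. The germline start of Trbv13-2, CASGD, differs from those of the other CAS genes only after CAS. Its class can therefore also hold chains of those genes.

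Single J genes differed more than the clusters. Trbj2-3 was used by 14.3 ± 5.74% of Trbv31 CDR3s and 9.40 ± 0.779% of other TRB CDR3s (SD, n = 36), higher by 4.86 percentage points (SE 0.960) and in 31 of 36 tumours (sign-flip permutation test, adjusted p = 0.0001). Trbj2-7 was used by 10.9 ± 3.64% and 15.7 ± 0.915%, lower for Trbv31 by 4.72 points in the mean (difference -4.72, SE 0.604) and in 33 of 36 tumours (adjusted p = 7.5e-05). Smaller differences passed for Trbj1-6, 4.14% against 3.15% (difference 0.988, adjusted p = 0.036), and for Trbj2-2, 4.85% against 6.31% (difference -1.47, adjusted p = 0.039). Both of these calls were lost with the serine required of the Trbv31 CDR3s (Trbj1-6 difference 0.462, adjusted p = 0.45, and Trbj2-2 difference -1.42, adjusted p = 0.089, same test). For Trbj2-2 the size of the difference changed little, while fewer Trbv31 CDR3s were counted. Trbj1-6 also lost its call at an equal read total (adjusted p = 0.24) and was -0.567 in vehicle-treated tumours alone, and Trbj2-2 lost it without single-read entries (adjusted p = 0.08) and without low counts of CDR3s larger in another tumour (adjusted p = 0.058). With CDR3s weighted by reads, Trbj2-3 remained past the threshold (difference 12.5, adjusted p = 0.0094) and Trbj2-7 did not (-5.36, adjusted p = 0.11). Trbj1-3 missed the threshold, with 7.59% against 5.93% (adjusted p = 0.053).

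The differences for Trbj2-3 and Trbj2-7 were also present against Trbv1, Trbv20 and Trbv13-2 taken singly. Trbj2-3 took 11.0% of Trbv1 CDR3s (Trbv31 higher by 3.27 points, adjusted p = 0.02), 7.90% of Trbv20 (higher by 6.36, adjusted p = 3e-05) and 9.41% of Trbv13-2 (higher by 4.85, adjusted p = 9.4e-05). Trbj2-7 took 13.0% of Trbv1 CDR3s, 14.9% of Trbv20 and 15.3% of Trbv13-2 (Trbv31 differences -2.01, -3.96 and -4.31, adjusted p = 0.02, 7.5e-05 and 3e-05, sign-flip permutation tests).

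The most used J gene over all tumours was Trbj2-1, in 495 distinct Trbv31 CDR3s (15.2%), and the least used Trbj1-5, in 89. By reads the order was another, with Trbj1-3 first at 58925 reads (23.6%), then Trbj2-3 at 52301 (21.0%) and Trbj2-5 at 49655 (19.9%). A clone of AC484 4, described below, gave most of the Trbj1-3 reads.

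**Figure D4:**
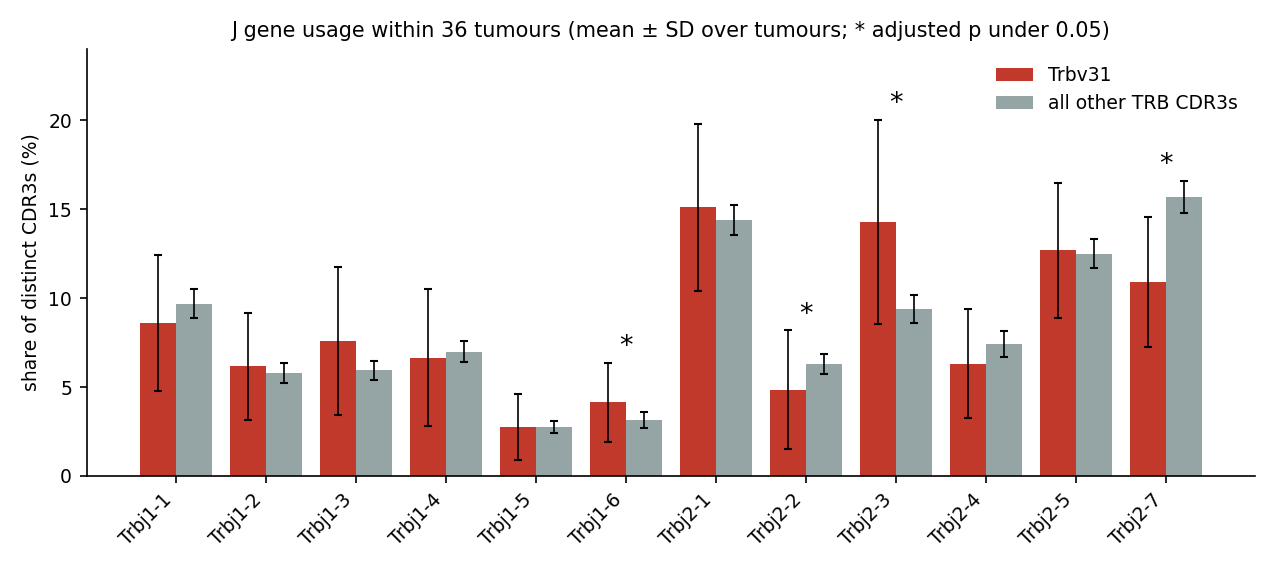
Share of distinct CDR3s (%) with each of the 12 Trbj genes within 36 tumours, Trbv31 left and other TRB right, as mean with SD over tumours. Trbj2-3 is higher (14.3% against 9.40%) and Trbj2-7 lower (10.9% against 15.7%) in Trbv31 chains.

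J use of Trbv31 chains did not differ past the threshold between treatments. The J1 share averaged 36.4 ± 6.06% with AC484, 36.2 ± 8.01% with anti-PD-1 and 33.9 ± 12.0% in vehicle controls (SD, n = 15, 15 and 6 tumours with enough CDR3s), with adjusted p of 0.74, 0.96 and 0.74 for AC484 against vehicle, AC484 against anti-PD-1 and anti-PD-1 against vehicle (permutation tests, exact where vehicle was included). Of 11 Trbv31 rows in a fit of 68 combinations of start class and J gene (edgeR quasi-likelihood test), 0 were called in any comparison, where the fit called 0%, 1.47% and 0% of all rows. In each comparison 1 of the 11 had an unadjusted p under 0.05. These were Trbj2-3 for AC484 against vehicle (log2 fold change -0.51, adjusted p = 0.27), Trbj1-2 for AC484 against anti-PD-1 (0.64, adjusted p = 0.063) and Trbj2-3 for anti-PD-1 against vehicle (-0.48, adjusted p = 0.76). DESeq2 called 0 as well, with 0, 1 and 0 at an unadjusted p under 0.05. Whether the gap between Trbv31 and other chains changed with treatment was tested directly for length, J1 share, sharing, Trbj2-3 and Trbj2-7, and the lowest adjusted p was 0.88.

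The D segments can be told apart only where enough of them is left. The residues GQG or DRG can be read from Trbd1 and not Trbd2, and GLG or DWG from Trbd2 and not Trbd1. These motifs and their tests were chosen after seeing the data. Among Trbv31 CDR3s with a J2 gene, 47 of 2047 (2.30%, 95% Wilson interval 1.73 to 3.04%) held a Trbd1 motif, against 4.37% (4.19 to 4.56%) of other TRB J2 CDR3s. GQG was in 1.37% against 2.22%, and DRG in 0.928% against 2.17%. Of Trbv20 J2 CDR3s, 1.59% held GQG and 2.35% DRG. Whether bases of a V end entered a motif was not tested. A Trbd2 motif was in 314 of the Trbv31 J2 CDR3s (15.3%), against 12.8% of the others. With J1 genes, 100 of 1199 Trbv31 CDR3s (8.34%) held a Trbd1 motif, against 9.07% of others, and 7 (0.584%) a Trbd2 motif. The last value was measured where Trbd2 is not normally joined.

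Within tumours, the Trbd1 motif was in 2.05% of Trbv31 J2 CDR3s and 4.16% of other J2 CDR3s (difference -2.11 percentage points, SE 0.463, lower in 30 of 36, sign-flip permutation test, adjusted p = 0.0003 over 9 tests). Against Trbv1, with 5.28%, the difference was -3.23 (adjusted p = 4.5e-05). Against Trbv20, with 3.16%, it was -1.11 and did not pass (adjusted p = 0.11). The Trbd2 motif in J2 chains, 15.0% against 14.5% (adjusted p = 0.7), and the Trbd1 motif in J1 chains, 8.22% against 9.11% (adjusted p = 0.5), did not differ past the threshold from other TRB. Trbv20 J2 chains held the Trbd2 motif more often, at 31.3% (difference of Trbv31 -16.4, sign-flip permutation test, adjusted p = 4.5e-05). With each distinct CDR3 counted once over all tumours, the gap was smaller, with 335 of 1703 Trbv20 J2 CDR3s (19.7%) against 15.3% for Trbv31. Counted so, DWG was in 16.5% of Trbv20 and 8.94% of Trbv31 J2 CDR3s, and GLG in 3.23% and 6.45%. The Trbv20 gap is in the Trbd2 motif, so its size is no measure for the Trbd1 difference. A motif match is a description of letters and does not identify the segment used.

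Most Trbv31 CDR3s were private to a tumour. Of 3246, 2979 (91.8%) were found in 1 tumour and 267 (8.23%) in 2 or more, against 10799 (15.5%) of other TRB CDR3s. By start class the share in 2 or more was 9.52% for Trbv1, 12.3% for Trbv13-2, 12.8% for Trbv20 and 17.5% for the remaining CAS chains. It was lower than for Trbv31 in the start of Trbv23 and Trbv30 (4.45%) and in all other starts (1.51%). In 10 or more tumours there were 3 Trbv31 CDR3s (0.0924%) and 271 others (0.390%). Within a tumour, 22.4 ± 8.37% of Trbv31 CDR3s and 38.2 ± 4.25% of other TRB CDR3s were found in another tumour (SD, n = 36). The difference of -15.8 percentage points (SE 1.02) had the same sign in 36 of 36 tumours (sign-flip permutation test, p = 1e-05, the smallest these resamples can give, adjusted p = 7.5e-05). A shared CDR3 counts in every tumour that holds it, so these differences are not fully independent, as the test takes them to be. The same holds for the tests of sharing against single start classes.

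The start classes Trbv1, Trbv13-2 and Trbv20 were set against Trbv31 singly. Trbv1 CDR3s, found in another tumour at 22.6%, differed from Trbv31 by -0.165 points (SE 1.14, adjusted p = 0.89), whereas Trbv13-2 at 28.9% and Trbv20 at 38.6% exceeded it (differences -6.54 and -16.2, adjusted p = 9.4e-05 and 3e-05, sign-flip permutation tests). The remaining CAS chains pool several genes that cannot be separated without V gene names, and an amino acid match between them need not be a match of V genes.

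**Figure D5:**
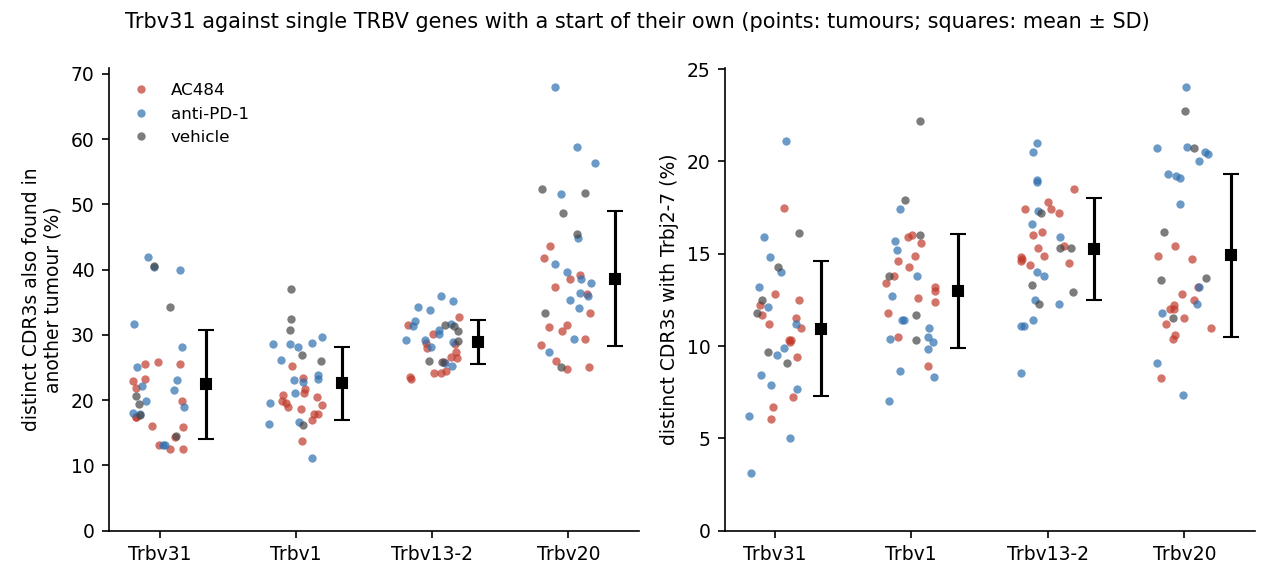
Share of distinct CDR3s (%) also found in another tumour (left) and with Trbj2-7 (right), for Trbv31 and for Trbv1, Trbv20 and Trbv13-2, the other start classes that were tested singly, with 1 point per tumour coloured by treatment and the mean with SD. The Trbv13-2 class can also hold chains of other CAS genes. The means of CDR3s found in another tumour are 22.4% for Trbv31 and 22.6% for Trbv1, while the Trbj2-7 mean is lowest in Trbv31 (10.9%).

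Shared and private Trbv31 CDR3s were set side by side for germline content. Those found in 2 or more tumours held a mean of 3.19 residues not read from the germline V or J end, against 3.83 in those of 1 tumour, and 63.3% against 40.9% held at most 3. The whole germline start CAWSL was kept in 57.3% of shared and 39.5% of private CDR3s. Their mean lengths were 13.8 and 14.1 residues. These are descriptions over distinct CDR3s, with no test.

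By treatment, pairs of AC484-treated tumours shared 13.3 CDR3s per 100000 possible Trbv31 CDR3 pairs, pairs of anti-PD-1-treated tumours 23.8 and pairs of vehicle-treated tumours 58.3. These rested on 310, 136 and 28 shared CDR3s in 105, 105 and 91 pairs, whose depths differed, and were not tested. Sharing also went with the index primer sets. On the same scale, pairs of tumours of the same set shared 23.8, and pairs of different sets 11.6. Same-set pairs shared more within each treatment, with 16.6 and 10.4 for AC484, 26.8 and 19.6 for anti-PD-1 and 63.9 and 41.5 for vehicle, and between AC484-treated and anti-PD-1-treated tumours, with 39.0 and 9.88. When an entry was left out wherever its count was below 1% of the highest that CDR3 reached in any tumour, which removed 152 entries (4.10%), same-set and different-set values became 9.53 and 6.79 over all pairs, 7.96 and 5.64 within AC484, 14.1 and 9.58 within anti-PD-1, and 7.52 and 5.91 between them. Within vehicle they were 12.8 and 21.9, the other way round, from 4 and 2 shared CDR3s. By treatment they became 6.71 for AC484, 12.3 for anti-PD-1 and 14.9 for vehicle, the last from 6 shared CDR3s. After that step 232 Trbv31 CDR3s (7.15%) and 9978 others (14.4%) were in 2 or more tumours, so Trbv31 remained the less shared. Whether such low counts were carried over between libraries was not tested.

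Of the 5 CDR3s found in the most tumours, the 3 of at most 14 residues are printed with their J gene and number of tumours, because their reads were divided so differently.
Trbj1-3, 13 tumours: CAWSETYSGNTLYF
Trbj2-4, 11 tumours: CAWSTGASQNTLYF
Trbj2-7, 9 tumours: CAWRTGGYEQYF
The other two had 15 residues, with Trbj2-5 in 11 tumours and Trbj2-3 in 9.

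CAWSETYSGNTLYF was found in 8 AC484-treated, 4 anti-PD-1-treated and 1 vehicle-treated tumour. Of its 39112 reads, 39040 were in AC484 4, where it took 9.59% of TRB reads, and the next tumour, AC484 9, had 19. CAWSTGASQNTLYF, with 9331 of 9413 reads in AC484 1, the Trbj2-5 CDR3, with 13977 of 14047 in AC484 6, and the Trbj2-3 CDR3, with 8423 of 8609 in anti-PD-1 14, had the same form. With counts below 1% of the largest left out, the Trbj2-3 CDR3 was found in 2 tumours and the other 3 in 1 tumour each.

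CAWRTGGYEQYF differed from these. Its 380 reads were spread over 9 tumours, 5 treated with AC484, 3 with anti-PD-1 and 1 in vehicle controls, at 4 to 114 reads each, and it was found in all 9 after the low counts were left out. Another 2, chosen after their values were seen because they were next in number of tumours by that measure, used Trbj2-3. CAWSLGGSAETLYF was found in 8 tumours, and in 7 after the step, and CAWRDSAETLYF in 8 and 6. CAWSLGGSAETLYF kept the whole germline start CAWSL, and the other two kept CAW only.

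Of the 274 TRB CDR3s found in at least 10 tumours, 29.9% were present in different numbers of tumours with AC484 and vehicle (two-sided Fisher's exact test, adjusted p under 0.05), 1.46% with AC484 and anti-PD-1 and 6.57% with anti-PD-1 and vehicle. The 3 Trbv31 CDR3s among them gave 1 call, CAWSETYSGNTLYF, in 8 of 15 AC484-treated and 1 of 14 vehicle-treated tumours (Fisher's exact test, p = 0.014, adjusted p = 0.047), against that background of 29.9%. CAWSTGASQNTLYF, in 6 of 15 and 0 of 14, missed the threshold (adjusted p = 0.051), and the Trbj2-5 CDR3, in 5 of 15 and 1 of 14, gave an adjusted p of 0.27. For AC484 against anti-PD-1 and anti-PD-1 against vehicle none of the 3 passed (lowest adjusted p = 0.16). Depth was higher with AC484 than with vehicle, and outside AC484 4 the called CDR3 had 72 reads in all. With counts below 1% of the largest left out, a setting added after seeing the data, it was in too few tumours to be tested.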

How the data were processed

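The authors amplified TCR α and β transcripts from bulk tumour RNA (SMARTer Mouse TCR a/b kit) and assembled amino acid clonotypes with MiXCR, whose parameters are not given in the sources used here. The submitters' processing notes name the build mm10. Deposited were read counts for each CDR3 in each tumour, both chains together and not normalized for depth, with no V gene or nucleotide sequence. The deposited fraction of each clone was not used. Of 4322 entries starting CAW, 611 had no listed J ending and were left out. Single-read entries were kept (20.2% of Trbv31 entries and 24.1% of other TRB entries).

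The members and lists were chosen with earlier results of these data known. Numbers at an equal TRB total of 5060 reads are expected values over all draws without replacement. Shares within a tumour needed 20 distinct Trbv31 CDR3s (15 AC484, 15 anti-PD-1 and 6 vehicle tumours). Treatments were compared by two-sided permutation tests over tumours (100000 resamples, exact where a group held under 10), Trbv31 with other chains by sign-flip permutation within tumours, with Benjamini-Hochberg adjustment over 12, 15, 15, 9, 15 and 8 tests for treatment, within-tumour, gene class, D motif, difference by treatment and index set. Numbers of distinct CDR3s, at least 100 per row, were tested with edgeR's quasi-likelihood test and DESeq2 as an alternative, and CDR3s in at least 10 tumours with Fisher's exact test. On simulated counts for AC484 against vehicle, over 68 rows, edgeR recovered 6 of 10 rows changed 1.5-fold, with 1 false call. Reads carry no molecular identifiers, so intervals cover counting error only.

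No libraries were copies of each other (highest correlation 0.202 over 21162 CDR3s). Replicate numbers did not pair tumours. Correlations of same-numbered tumours had medians of 0.0203, -0.0517 and 0.0416 in the 3 comparisons. The CDR3s described singly are the 5 with the most tumours, the largest of each treatment, those past the threshold of the Fisher test, and 2 chosen after their values were seen. Alternatives changed the entries counted, the CAW rule, the depth step, the test, the replicate block and the tumours. The class comparisons, the D motifs and the settings that left out libraries under 3.5 nM, near-copies, the largest CDR3s or low counts of CDR3s in 10 or more tumours, or that used log2 shares or looser J endings, were added after seeing the data. Software was R 4.3.3 with DESeq2 1.42.0 and edgeR 4.0.16, and Python 3.11.15 with pandas 2.3.3, SciPy 1.17.1, NumPy 2.4.6, matplotlib 3.10.9 and statsmodels 0.14.6.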

Additional observations from a re-analysis of the deposited data

Results flagged for a closer look

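In vehicle 3, Trbv31 J use lay far from that of the other vehicle-treated tumours with enough CDR3s. Trbj1-4 took 12.9% of its 31 distinct Trbv31 CDR3s and Trbj2-3 took 0, a count that allows a share of up to 9.68%. The comparison was made in 15 groups of values, in which chance marks about 1 in 20.

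Outside the entries analysed, 611 entries starting CAW ended in none of the listed J residues. They held 24816 reads, or 9.05% of all CAW reads. Of them 467 ended in the last 4 residues of a listed J gene and 144 did not.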

How the results depend on the processing

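The numbers of distinct Trbv31 CDR3s at an equal total differed between AC484 and vehicle under every alternative run. Left-out tumours moved that difference between 20.6 and 24.7, anti-PD-1 minus vehicle between 12.4 and 15.4 (12.9, adjusted p = 0.051, without vehicle replicate 6) and AC484 minus anti-PD-1 between 6.66 and 10.8 (past the threshold, adjusted p = 0.04, without anti-PD-1 replicate 2). Over all reads AC484 minus anti-PD-1 was 76.5 (adjusted p = 0.01), and within index set 2 anti-PD-1 minus vehicle was 21.8 (adjusted p = 0.22).

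The share of distinct CDR3s with left-out tumours lay between 0.290 and 0.619 for AC484 minus vehicle, -0.00581 and 0.233 for AC484 minus anti-PD-1, and 0.178 and 0.506 for anti-PD-1 minus vehicle. AC484 minus anti-PD-1 was -0.00383 with CAWS required and -0.0558 without libraries under 3.5 nM, a setting chosen after seeing the data, and anti-PD-1 minus vehicle was -0.205 over all reads. The read share lay between 2.20 and 3.39 for AC484 minus vehicle (past the threshold, adjusted p = 0.03, without vehicle replicate 1), 1.49 and 2.92 for AC484 minus anti-PD-1 (adjusted p = 0.044 without anti-PD-1 replicate 13) and -0.162 and 1.34 for anti-PD-1 minus vehicle. It was -0.156 for anti-PD-1 minus vehicle with CAWS required, 0.990 for AC484 minus vehicle without the largest CDR3s and 1.31 on the log2 scale.

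The J1 share by treatment had no stable sign. With left-out tumours it lay between -0.529 and 6.69 for AC484 minus vehicle, -0.641 and 1.82 for AC484 minus anti-PD-1, and -0.650 and 6.57 for anti-PD-1 minus vehicle. AC484 minus anti-PD-1 was -0.235 without single reads, -0.358 without low counts of shared CDR3s, -0.0244 with CAWS, -0.0470 at the equal total, -14.2 weighted by reads and -1.29 within index set 3. AC484 minus vehicle was -7.60 weighted by reads and -0.218 with the replicate block, which changed no call (number of CDR3s 23.1, adjusted p = 0.0019, for AC484 against vehicle).

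Within tumours, Trbv31 minus other TRB length was -0.0676 without single reads (adjusted p = 0.063) and without libraries under 3.5 nM (adjusted p = 0.088), 0.108 with CAWS, 0.208 weighted by reads, -0.0457 at the equal total, -0.0380 in anti-PD-1 and -0.0901 in vehicle alone. The J1 difference was -7.23 weighted by reads and -0.218 in vehicle alone, and the shared difference was -16.8 in the 6 vehicle tumours (adjusted p = 0.47). Of 4 J genes past the threshold, 2 were past it with CAWS, without libraries under 3.5 nM, in AC484 alone and in anti-PD-1 alone, and 0 in vehicle alone, where Trbj1-6 was -0.567. Weighted by reads 4 passed, of which Trbj2-3 was also called with each CDR3 counted once, while Trbj2-7 (-5.36, adjusted p = 0.11), Trbj1-6 (adjusted p = 0.96) and Trbj2-2 (adjusted p = 0.25) were no longer past the threshold. The 1 CDR3 called between AC484 and vehicle became 0 in each of 3 settings (at least 8 tumours, no single reads, no low counts). The cause was not tested. Shares in vehicle rest on 6 tumours, which limits them, and the missing calls in vehicle alone do not show that a difference was absent there.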
